A study of Rattus norvegicus with 10 samples.

Results

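The transcripts described here are RNAs assembled from rat liver that run antisense to an annotated gene. They are the rows of the isoform table with an assembled name and the class code x, which marks an exon that overlaps a reference exon on the opposite strand. There were 975 such rows among 51430 rows (1.9%), from 566 assembled loci, and they lay opposite 455 gene names. The gene on the other strand is called the host, and its level is the summed FPKM of the rows that carry its name with the codes =, c, j or o, which are the matching, contained, junction-sharing and overlapping rows on its own strand. Of the host names, 445 had such a sense row.

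The livers came from wild-type Wistar rats, with no sex or age given, made diabetic by a diet with 60% of its calories as fat for 4 weeks and then 35 mg/kg streptozotocin, which kills beta cells of the pancreas. Rats with a fasting glucose above 16.7 mmol/L were divided at random into groups matched on body weight. The SG group (5 libraries) had sleeve gastrectomy, which removes most of the stomach, and its livers were taken 3 months after surgery. The SHAM group (5 libraries) had the same diet and streptozotocin and a sham operation, with no time given, so a difference in time and the operation cannot be told apart. Nothing in the labels ties each library to a separate rat, so p-values measure only the spread between these libraries, which may be technical. Libraries held 65824088 to 92110190 estimated counts. The 6 hepatocyte markers summed to 33184 to 46190 FPKM in SG and to 29436 to 42572 FPKM in SHAM, and none was at 0.

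Natural antisense transcripts are made from the strand opposite a gene. Some are known to act on the chromatin, splicing, stability or translation of the RNA they overlap, and many have no known role. A sense and an antisense RNA can only be told apart in sequencing by a library that keeps the strand or by the splice sites that a spliced read crosses. The labels do not state that the kit kept the strand, so reads of a host and of its antisense partner cannot be told apart with certainty, and the part of this in each result was not tested. Among the 975 rows, 950 had more than 1 exon (97.4%), against 38.4% of the assembled rows inside introns and 26.5% of those between genes. Some gaps between exons were very short: the 2-exon row opposite Acsl1 had 2401 nt in a span of 2424 bases. Whether the gaps are introns was not tested, so the exon count does not fix the strand of a row. All 975 carried a strand, 437 the plus and 538 the minus strand. The locus of carboxypeptidase N subunit 2 (Cpn2) gives an example of an unspliced pair: downstream of the gene, single-exon rows on the plus and on the minus strand share both ends and were listed at nearly the same FPKM in every library. Of the 975 antisense rows, 21 shared both ends with a row on the opposite strand, and these 21 had more than 1 exon.

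The antisense rows opposite the microRNA gene Mir3591 are shown first, with their sequences, because that strand carries microRNA 122. MicroRNA 122 is the leading microRNA of hepatocytes, known for its place in lipid metabolism, and Mir3591 is annotated on the reverse strand of the same hairpin. Mature sequences and hairpins below are from RefSeq (GRCr8). In the mature sequences capitals mark the seed, bases 2 to 8, and in the hairpins they mark the mature arms.
rno-miR-122-5p: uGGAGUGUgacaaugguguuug
rno-miR-122-3p: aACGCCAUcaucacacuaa
rno-miR-3591: aACACCAUugucacacucca
Mir122 hairpin, plus strand: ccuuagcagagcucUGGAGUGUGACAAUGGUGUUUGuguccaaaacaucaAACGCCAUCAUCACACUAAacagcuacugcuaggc
Mir3591 hairpin, minus strand: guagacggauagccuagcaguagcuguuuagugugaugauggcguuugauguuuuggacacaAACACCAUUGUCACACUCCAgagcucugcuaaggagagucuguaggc
All 20 bases of miR-3591 were the reverse complement of bases 1 to 20 of miR-122-5p. The 85-base Mir122 hairpin was contained in the reverse complement of the 109-base Mir3591 hairpin. The 3 mature sequences have different seeds.

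In the deposited table (Rnor_6.0) Mir3591 was listed on the minus strand at chr18:60755272-60755380, and 2 antisense rows ran over it on the plus strand, the strand of Mir122. MSTRG.10733.2 had 2 exons, 3473 nt and the span chr18:60750770-60755275, so that it ended 4 bases inside the Mir3591 row. MSTRG.10733.1 had the same start and 1 exon of 12454 nt and covered all 109 bases. The 2-exon row stood at 72.4, 55.9, 30.2, 73.1 and 9.51 FPKM in SG and at 53.1, 34.0, 12.3, 11.4 and 133 FPKM in SHAM. SG 5 was the lowest library of all and SHAM 5 the highest, and the groups overlapped widely. Their means were 48.2 ± 27.8 FPKM (SD, n = 5) in SG and 48.8 ± 50.2 FPKM (SD, n = 5) in SHAM. The log2 fold change, SG over SHAM, was -0.05 ± 0.75 (SE), and edgeR's quasi-likelihood fit gave it an adjusted p of 1.0. The 1-exon row stood at 17.0, 14.5, 4.01, 14.2 and 55.6 FPKM in SG and at 14.6, 8.83, 28.5, 44.5 and 28.9 FPKM in SHAM. It was highest in SG 5 and SHAM 4, the lowest libraries of the 2-exon row in each group. How the estimates were split between these 2 rows was not tested. The 1-exon row averaged 21.0 ± 19.9 FPKM in SG against 25.1 ± 13.9 FPKM in SHAM (SD, n = 5 each), with a log2 fold change of -0.41 ± 0.66 (SE) and an adjusted p of 1.0 in edgeR. The sense value of Mir3591 averaged 1.66 FPKM, nearly all of it from 1 overlapping assembled row, so that both antisense rows stood far above the strand annotated as the gene.

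An antisense row can also begin close to the start of its host. Among tested rows, 3 lay over the 5′ end of the host and started at most 100 bases after its start, on hosts Ctdsp1 (CTD small phosphatase 1), Atl3 (atlastin 3) and LOC100910057, a set picked after the positions were seen. RefSeq promoters of 300 bases in GRCr8, 250 before and 50 after the start, were on hand for the first 2, and are printed with every CG in capitals because paired starts often lie in CG-rich promoters.
Ctdsp1, chr9:83422916-83423215, plus strand: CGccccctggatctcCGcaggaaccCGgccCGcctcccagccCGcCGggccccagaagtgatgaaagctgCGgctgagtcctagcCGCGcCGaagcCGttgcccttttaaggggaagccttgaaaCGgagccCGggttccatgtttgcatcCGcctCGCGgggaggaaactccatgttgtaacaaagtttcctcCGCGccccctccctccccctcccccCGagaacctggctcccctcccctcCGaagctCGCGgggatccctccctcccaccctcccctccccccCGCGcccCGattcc
Atl3, chr1:214109877-214110176, plus strand: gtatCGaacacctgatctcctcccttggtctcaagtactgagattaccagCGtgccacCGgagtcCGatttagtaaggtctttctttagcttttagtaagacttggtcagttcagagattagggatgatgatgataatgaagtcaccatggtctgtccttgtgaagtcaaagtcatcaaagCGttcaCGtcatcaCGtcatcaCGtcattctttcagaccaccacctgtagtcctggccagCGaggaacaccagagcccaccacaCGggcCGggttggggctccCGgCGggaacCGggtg
The motif CG reads the same on both strands. It occurred 25 times in the Ctdsp1 window and 14 times in the Atl3 window, and 16.6% and 33.5% of all 33469 promoters held at least as many. At least 1 CG was found in 94.5% of promoters. The median was 7 over all promoters, 17 over the 263 host promoters matched and 10.5 over the 46 hosts matched that had an antisense row over the 5′ end.

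Most antisense rows were spliced, short in sequence and long in span. There were 618 rows with 2 exons and 332 with 3 or more. The median length was 1363 nt, from 200 to 91722 nt, and the median span on the chromosome was 15358 bases. For 137 rows the span was above 100000 bases, up to 1330879 bases. By position, 675 rows lay inside the host, 104 over its 5′ end, 91 over its 3′ end and 87 spanned it, and 18 overlapped no sense row of that name. The assembled locus of 282 rows also held rows of another class, 142 of them with a row between genes, and 62 rows lay in a locus with another annotated gene on their own strand.

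A few hosts held many of the rows, and these are gene families or repeated names whose reads can be split between near-identical copies, which leaves their values uncertain. RF00002 had 107 antisense rows, Cyp2c6v1 (a cytochrome P450 of family 2C) 44, RF00026 29, Mup4 (major urinary protein 4) 18, and Mug2 (murinoglobulin 2) and Acnat2 12 each. Names that stand on several chromosomes, 8 in all and each of the RF series, had 146 rows, 51 of them tested. In contrast 306 hosts had 1 antisense row. Of the 445 hosts, 333 matched a protein-coding gene in the RefSeq table and 108 had no match.

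Antisense rows were found most often opposite highly expressed genes. Among genes under 1 FPKM 52 of 9087 had an antisense row (0.572%), among those at 100 to 1000 FPKM 65 of 365 (17.8%), and among those at 1000 FPKM or more 26 of 59 (44.1%). The median host level was 15.7 FPKM, against 1.52 FPKM over all 20226 genes with a sense row. The antisense level relative to the host, a ratio with the host level as its denominator, went the other way. The median antisense sum was 742% of the host under 1 FPKM, 29.2% at 1 to 10, 8.42% at 10 to 100, 2.12% at 100 to 1000 and 1.01% at 1000 FPKM or more. A gene with more reads gives the assembler more material on either strand, and the part of this in the counts was not tested.

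**Figure D1:**
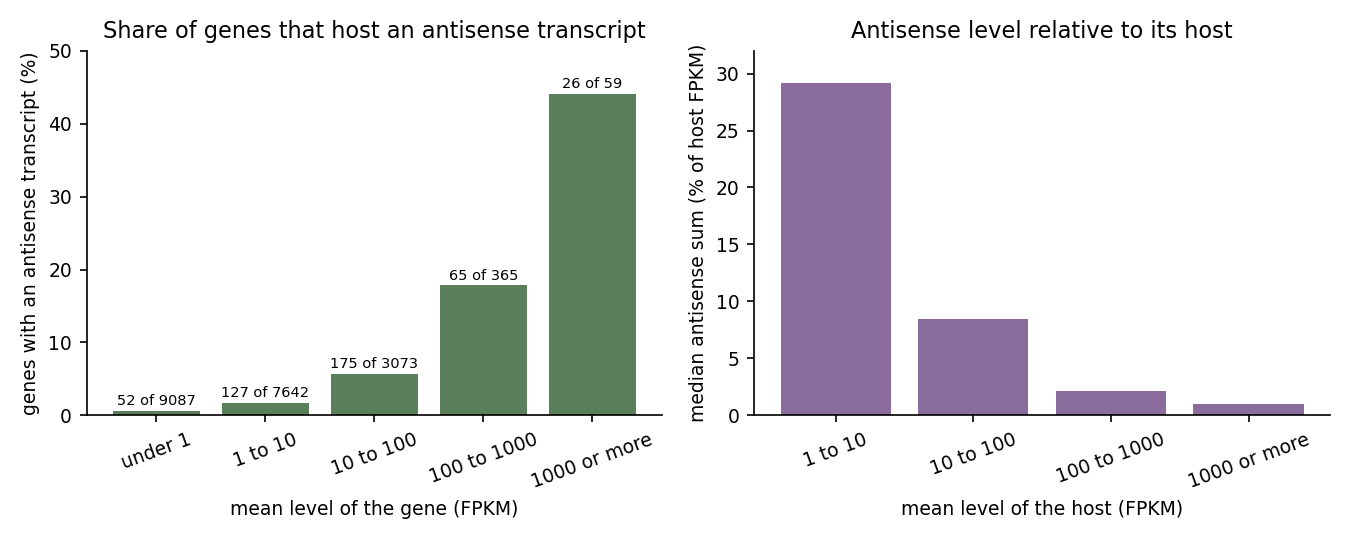
Left, percent of genes that host at least 1 antisense row in each range of the gene's mean FPKM over 10 libraries, with the number of genes above each bar. Right, the median over hosts of the summed antisense FPKM as a percent of the host FPKM, without the range under 1 FPKM, which stood at 742%. The share of hosts rises from 0.572% to 44.1% over all ranges, while the relative antisense level falls from 29.2% to 1.01% over those drawn.

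Hosts followed the liver's main products. Among the 233 listed genes of hepatocyte function that stood in the table, 39 had an antisense row (16.7%), against 2.20% of all genes. The share was 38.1% of the 42 genes of plasma proteins and 33.3% of the 24 genes of cytochrome P450 and conjugation enzymes. It was 20.7% of the 29 bile acid and cholesterol genes, 8.33% of the 24 interferon and immune genes and 7.41% of the 27 fatty acid and ketone genes. It was 6.45% of 31 amino acid and urea cycle genes, 6.25% of 32 transcription factors and 4.17% of 24 glucose and glycogen genes. These lists were not matched on level, and the highly expressed lists are also those with the larger shares.

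Antisense levels were low in general. The median row had a mean of 1.38 FPKM over the 10 libraries, 591 rows reached 1 FPKM, 122 reached 10 FPKM and 14 reached 100 FPKM. There were 539 rows above 0 in all 10 libraries, 207 above 0 in 1 to 4 libraries and 16 at 0 in all of them. A total of 735 rows passed the filter for testing, a mean of at least 0.1 FPKM with values above 0 in at least 5 libraries, and 240 did not. Among 667 tested rows with a host of at least 1 FPKM, called pairs below, the antisense mean was a median 4.47% of the host mean, with quartiles of 0.743% and 15.9%. In 17 pairs the antisense row was above its host, and in 197 it was under 1% of it.

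The row with the highest mean lay opposite Kng1, kininogen 1, the plasma precursor of bradykinin. MSTRG.5238.1 had 5 exons on the plus strand at chr11:81417301-81516760 (Rnor_6.0). It stood at 384, 1358, 878, 843 and 390 FPKM in SG and at 93.7, 663, 468, 131 and 6.22 FPKM in SHAM. SHAM 5 was the lowest library and SG 2 the highest, and 2 SHAM libraries lay within the SG range. The means were 771 ± 405 FPKM in SG against 272 ± 280 FPKM in SHAM (SD, n = 5 each). The log2 fold change of 1.45 ± 0.94 (SE) did not pass in edgeR's test, with an adjusted p of 1.0. The same assembled locus held 2 further isoforms that lie beyond Kng1 and took 306 and 307 FPKM on average. Summed over the 3 isoforms, the locus held 801 to 2136 FPKM in SG, against 338 to 1534 FPKM in SHAM, and the split among the isoforms differed between libraries, with the third isoform at 0 in 5 of them. The host held 1182 to 3447 FPKM in SG, against 778 to 2919 FPKM in SHAM.

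The second highest row, MSTRG.5249.1, ran over the 3′ end of AABR07034632, a gene with no description in the table, at chr11:81649249-81717452. It stood at 579, 400, 343, 441 and 366 FPKM in SG and at 370, 387, 402, 449 and 329 FPKM in SHAM. All SG values but SG 1 lay within the SHAM range, and the log2 fold change was 0.06 ± 0.19 (SE; edgeR adjusted p = 1.0). Its mean was 36.7% of the host mean.

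Opposite beta-actin (Actb), a cytoskeletal protein made in every cell, MSTRG.5629.1 had 2 exons over the 3′ end of the gene. It stood at 164, 211, 223, 162 and 240 FPKM in SG and at 158, 160, 180, 197 and 306 FPKM in SHAM, with the groups overlapping. The means were 200 ± 35.6 FPKM and 200 ± 61.2 FPKM (SD, n = 5 each), or 42.5% of the host mean overall. Opposite Fga, the fibrinogen alpha chain, MSTRG.12812.1 had 3 exons with 729 nt in a span of 792 bases, so its gaps were short. The Fga row averaged 115 ± 39.9 FPKM in SG against 93.1 ± 57.5 FPKM in SHAM (SD, n = 5 each). SHAM 3 stood at 1.81 FPKM, while the other 9 libraries stood at 56.3 to 159 FPKM. Opposite Cyp2c6v1, the highest of its rows, MSTRG.1470.9, averaged 102 ± 40.9 FPKM in SG against 100.2 ± 40.7 FPKM in SHAM (SD, n = 5 each).

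The other 5 of the 8 highest rows lay opposite AABR07000398 or RF00002 on chromosomes 1 and 6. MSTRG.138.42, opposite RF00002, was above 0 only in SG 3, at 281 FPKM, and in SHAM 4, at 2932 FPKM, and it was not tested. MSTRG.136.44, opposite AABR07000398, held 0.97 to 705 FPKM in SG, against 0.60 to 1284 FPKM in SHAM. The median SD within groups on the log2 scale was 2.37 for tested rows of names on several chromosomes and 0.88 for those of hosts on 1 chromosome. It was 0.83 for spliced sense rows of the code j and 0.52 for rows that match a reference transcript.

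**Figure D2:**
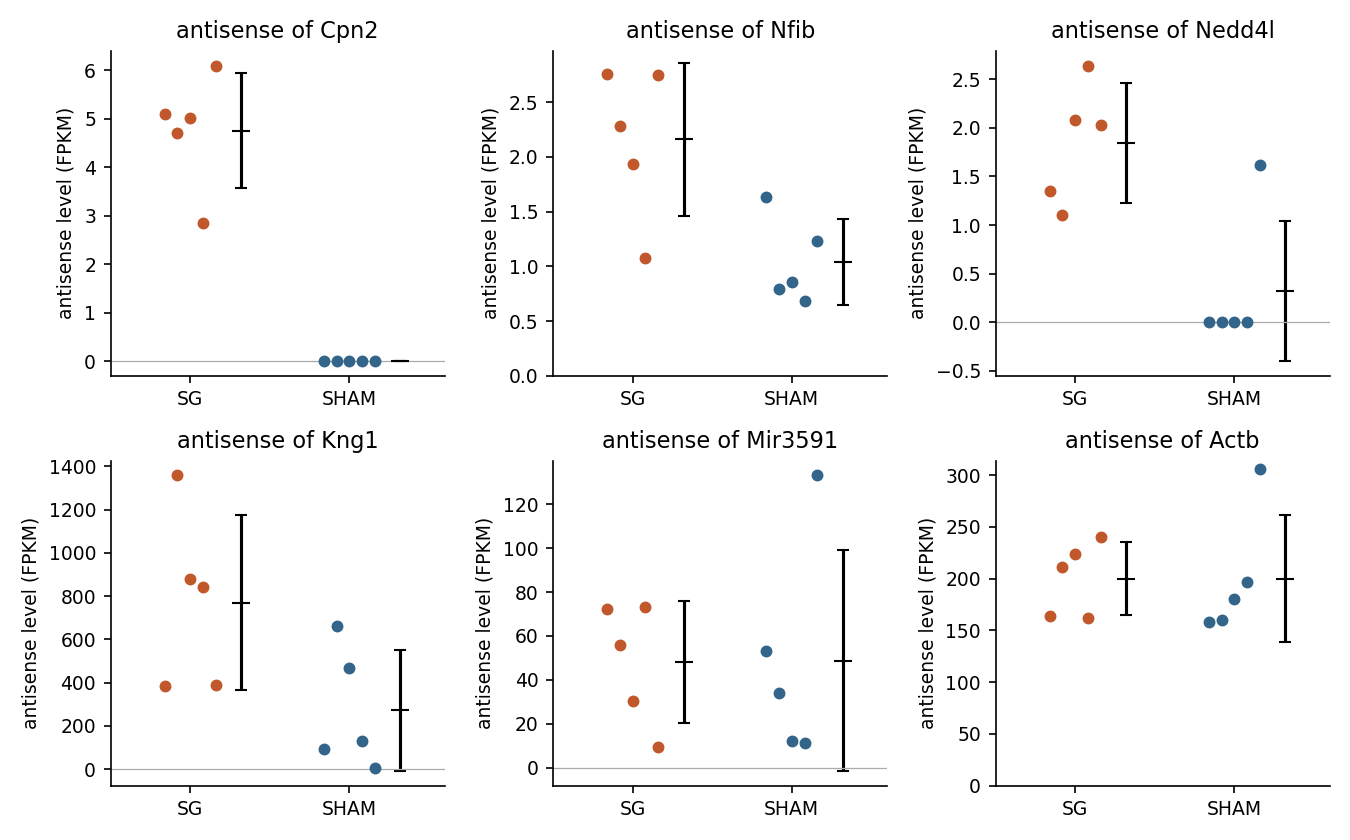
Antisense level in FPKM of 6 rows in each library, with SG and SHAM libraries as points in the order of their numbers and the mean with its SD beside them. The Cpn2 row is above 0 in the 5 SG libraries alone, while the groups overlap for the rows of Nfib, Nedd4l, Kng1, Mir3591 and Actb.

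Whether the antisense output as a whole differed between SG and SHAM was asked with 1 sum for each library. Summed antisense levels were 6560, 7742, 7564, 7083 and 7031 FPKM in SG and 7941, 7423, 6292, 11963 and 8111 FPKM in SHAM. SHAM 4 was the highest and SHAM 3 the lowest, so the SG values lay within the SHAM range. The means were 7196 ± 468 FPKM and 8346 ± 2143 FPKM (SD, n = 5 each), with p = 0.294 in an exact two-sided permutation test over 252 splits, whose smallest possible p is 0.00794. Without SHAM 3 the difference was -1664 FPKM with an exact permutation p of 0.0238, and without SHAM 4 it was -246 FPKM with an exact permutation p of 0.571. In SHAM 4, 8298 FPKM of the sum came from names on several chromosomes, and 8256 FPKM from RF00002 alone. Over hosts on 1 chromosome only, an alternative added after seeing the data, the direction turned: 4770 ± 365 FPKM in SG against 4164 ± 687 FPKM in SHAM (SD, n = 5 each), with an exact permutation p of 0.119. Single high rows weigh in that sum too. The Kng1 row averaged 771 FPKM in SG against 272 FPKM in SHAM, a large part of this difference. MSTRG.136.44 of AABR07000398 averaged 317 FPKM in SG against 466 FPKM in SHAM, the other way. The sum without these rows was not tested. AABR07000398 counts as a host on 1 chromosome, but its sense rows span a stretch of chromosome 1 where RF00002 rows also lie. The subset therefore does not leave out that stretch. Antisense rows took 1.51% to 2.97% of the estimated counts of a library.

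**Figure D3:**
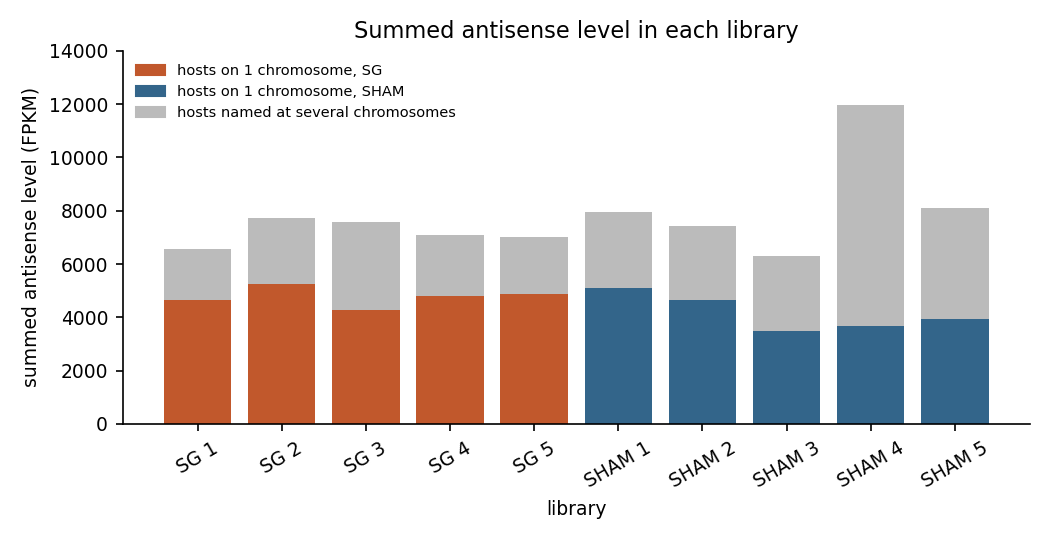
Summed FPKM of the antisense rows in each of the 10 libraries, with hosts on 1 chromosome in colour and names on several chromosomes in grey. SHAM 4 stands highest at 11963 FPKM, with 8298 FPKM of it in the grey part.

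Relative to their hosts the antisense rows did not differ between groups beyond the spread of the libraries. The median log2 ratio of antisense to sense FPKM over the pairs was -4.53 ± 0.05 in SG and -4.53 ± 0.16 in SHAM (SD, n = 5 each), with an exact two-sided permutation p of 0.992. Over single pairs, limma on the log2 ratio called 1 of 667, with 0.00932% called over all 21452 rows fitted against the rest of their gene. At an unadjusted p under 0.05 there were 14 pairs higher in SG and 17 lower (2.10% and 2.55%), against 2.34% and 2.59% of all rows.

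The pair that limma called was that of Cpn2. Cpn2 is the regulatory subunit of carboxypeptidase N, a plasma enzyme of hepatocyte origin that trims kinins and anaphylatoxins. Its antisense row MSTRG.5179.1 lay on the minus strand inside the gene at chr11:74065445-74065838 (Rnor_6.0), with 2 exons, 280 nt and a gap of 114 bases between them. It stood at 5.09, 4.71, 5.01, 2.84 and 6.10 FPKM in SG, from 141, 135, 130, 83 and 169 estimated counts. In SHAM it was listed at 0 in all 5 libraries. Every SG library was thus above every SHAM library. With 3 counts in each SHAM library as the floor, which covers counting error only, the SG mean of 4.75 ± 1.19 FPKM (SD, n = 5) was at least 39.7-fold higher.

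The host itself showed no such split. Cpn2 stood at 83.5, 119, 97.3, 95.3 and 99.3 FPKM in SG and at 100.6, 85.8, 78.9, 91.6 and 90.4 FPKM in SHAM. These ranges overlap, and the log2 fold change of the host was 0.05 with an adjusted p of 0.993 in edgeR. The log2 ratio of antisense to sense was 5.42 higher in SG (limma adjusted p = 0.000107), a size that the pseudocount of 0.1 FPKM sets, since the SHAM values are 0. The row passed the filter of 5 libraries above 0 through the SG group alone, so a difference was built into its being tested, and its p-values are given as a description. In the planned edgeR test of the transcript the adjusted p was 0.0738 and the call was not made. Limma on log2 FPKM gave an adjusted p of 2.9e-05 and DESeq2 one of 3.7e-18, and edgeR without SHAM 1 gave 0.0377. EdgeR did not call the row with any other library left out, with DESeq2 size factors or with no filter. Among the 39559 isoforms tested, 4 (0.0101%) were above 0 in every SG library and at 0 in every SHAM library, and 1 (0.00253%) was so the other way round. A value of 0 in the table is an estimate shared between overlapping rows, and whether reads of this locus were assigned elsewhere in SHAM was not tested.

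Over all antisense transcripts, edgeR's quasi-likelihood test called 0 of 735 at an adjusted p under 0.05, with 0.0% called over all 39559 isoforms. DESeq2 called 1 of them, with 0.521% called over all, and limma called 1, with 0.00758% called over all. At an unadjusted p under 0.05 edgeR gave 13 antisense rows higher in SG and 18 lower (1.77% and 2.45%), against 2.16% and 1.96% of all isoforms. The share of antisense rows at that threshold, 4.22%, was near that of all isoforms, 4.12%. The median log2 fold change was -0.00, with 367 rows above 0 and 368 below, and the median SE was 0.60, so at this depth and spread moderate changes of a single row were not detectable. In 4 rows (0.544%) every SG library was above every SHAM library, and in 1 row (0.136%) every SG library was below. The background over all isoforms was 0.69% and 0.174%.

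The rows with the smallest p-values are described here, with no call among them in edgeR. Opposite Nfib, nuclear factor I/B, a transcription factor, MSTRG.18273.1 had 3 exons and 31105 nt. It stood at 2.76, 2.28, 1.94, 1.08 and 2.75 FPKM in SG and at 1.63, 0.80, 0.85, 0.68 and 1.23 FPKM in SHAM. SG 4 fell inside the SHAM range and the other SG libraries lay above it. The log2 fold change was 0.99 ± 0.29 (SE; edgeR adjusted p = 1.0), while the host differed by -0.07 on the log2 scale. Opposite Arl15, a small GTPase, MSTRG.11983.1 averaged 0.369 ± 0.353 FPKM in SG against 0.0917 ± 0.0136 FPKM in SHAM (SD, n = 5 each), with SG 2 and SG 5 highest.

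Of the rows lower in SG, MSTRG.2166.9 opposite AC099449 averaged 0.262 ± 0.201 FPKM in SG against 1.28 ± 1.18 FPKM in SHAM (SD, n = 5 each), with SHAM 1 and SHAM 2 at 2.57 and 2.58 FPKM and the rest of SHAM at 0.40 to 0.45 FPKM. The class I histocompatibility gene RT1-A2, which presents peptides to T cells, hosted 2 rows of opposite direction in 1 assembled locus. MSTRG.13785.4 averaged 0.0509 ± 0.0552 FPKM in SG and 1.21 ± 2.0 FPKM in SHAM, and MSTRG.13785.5 averaged 1.10 ± 1.54 FPKM in SG against 0.000349 ± 0.000507 FPKM in SHAM (SD, n = 5 each). These rows nearly share their ends and the histocompatibility genes are near-identical copies, so how reads were split between them is uncertain. The rows of AABR07000398 (MSTRG.136.42) and Akr1c19 (MSTRG.10018.2) had their fold changes from 1 library each: SHAM 5 at 262 FPKM with the other 9 libraries at or under 0.01, and SHAM 4 at 1.31 FPKM with the others at or under 0.013.

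Of the rows without overlap between groups, a pair outside the sets above is described here. The row opposite Topors stood at 1.491 to 2.16 FPKM in SG and 0.92 to 1.488 FPKM in SHAM, a narrow gap. That opposite Igh-6, the immunoglobulin mu heavy chain, stood at 4.07 to 13.2 FPKM in SG and at 0 to 3.23 FPKM in SHAM, and the 2 B and plasma cell markers in the table summed to 19.6 to 63.7 FPKM in SG and to 5.54 to 24.5 FPKM in SHAM. The part of these cells in that row was not tested. Both rows were picked after their values were seen.

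Antisense to sense ratios with small p and no call moved through either partner. For Mup4, a lipocalin of liver and urine, 3 rows had ratios lower in SG by 1.80 to 1.91 on the log2 scale. These rows had log2 fold changes of -0.12, 0.02 and 0.11, while the host was higher by 1.46 ± 0.53 (SE; edgeR adjusted p = 0.991). The 3 rows, of 18 opposite Mup4, share that host, so their ratios repeat 1 host difference. Mup4 stood at 8037 FPKM in SG 4 and at 1334.5 to 3078 FPKM in the other SG libraries. The Mup4 rows MSTRG.18154.3 and MSTRG.18154.2 were called positive with the host by the permutation test, with r of 0.91 and 0.89. Opposite Nedd4l, an E3 ubiquitin ligase, MSTRG.10736.1 stood at 1.35, 1.10, 2.08, 2.64 and 2.03 FPKM in SG, and at 0 in 4 SHAM libraries and 1.61 FPKM in SHAM 5. Its log2 ratio was 3.30 higher in SG (limma adjusted p = 0.903), and 4.18 higher without SHAM 5, where limma's adjusted p was 0.00127. Without SHAM 5 this row was above 0 in SG libraries alone, so a difference was built in. The pseudocount then sets the size, and that p-value is given as a description. Opposite Ctdsp1, the row next to the CG-rich start printed above stood at 1.07, 0.69, 0, 1.34 and 1.77 FPKM in SG, and in SHAM above 0 only in SHAM 3, at 0.33 FPKM. Its log2 ratio was 2.37 higher in SG with a limma adjusted p of 0.96. Kyat3, a kynurenine aminotransferase, had a ratio 1.27 higher in SG with the same adjusted p. The row MSTRG.13735.53 of AABR07044408, at 0 in SG 3, SG 4 and SG 5, had a ratio lower by 5.01 (limma adjusted p = 0.903), and its host was higher in SG by 1.78 ± 0.62 (SE; edgeR adjusted p = 0.991).

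As genes, hosts were tested in the same way. EdgeR called 0 of 393 tested hosts, with 0.0% called over all 11139 genes, and DESeq2 called 1 host, with 0.162% called over all. Limma on log2 FPKM called 0 of them. At an unadjusted p under 0.05 edgeR gave 8 hosts higher in SG and 3 lower (2.04% and 0.763%), against 2.68% and 1.85% of all genes. The host that DESeq2 called was AABR07044404, higher by 2.49 ± 0.63 (SE) in edgeR with an adjusted p of 0.991. Others at that threshold were Hsd3b5, a hydroxysteroid dehydrogenase, at 0.56 ± 0.19, Lipc, hepatic lipase, at 0.49 ± 0.21, and Slc1a2, a glutamate transporter, at -1.10 ± 0.45 (log2 ± SE).

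Over the 10 libraries an antisense row tended to go up and down with its host. Pearson's r of log2(FPKM + 0.1) had a median of 0.35 over the 667 pairs, with 508 positive and 159 negative values. A permutation test of each row with 100000 resamples, adjusted over all 21452 rows, called 69 pairs in 52 hosts (10.3%), all of them positive, with 5.1% of all rows called positive and 6.95% called negative. No pair was called negative over the 10 libraries, and 6 were negative at an unadjusted p under 0.05, while 2 were called negative without SHAM 3, 1 without SG 2 and 1 on scaled CPM. Spearman's rho called 38 pairs, all of them positive. Both values of a library share its depth and, without strand, possibly its reads, and the part of this in r was not tested.

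Pearson's r was also taken for other assembled rows. Rows inside introns had a median r of 0.39, and 181 of 1951 were called positive (9.28%) and 3 negative. Spliced sense rows of the code j, each against the rest of its gene, had a median of -0.19, with 410 of 8920 called positive (4.60%) and 877 negative. A sense row shares estimated reads with the rows it is set against, while antisense and intronic rows are set against the full sense sum. The sense rows, and the shares over all rows, which include them, are therefore not a like background. The share of antisense pairs called was thus near that of intronic rows. With the group means subtracted, 33 pairs were called, all among the 69. Without the 2 libraries farthest from the median of the host, the 69 kept positive values of r, from 0.28 up, with a median of 0.84. As the 69 were chosen by r over the same libraries, positive values were likely, and they are given as a description.

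**Figure D4:**
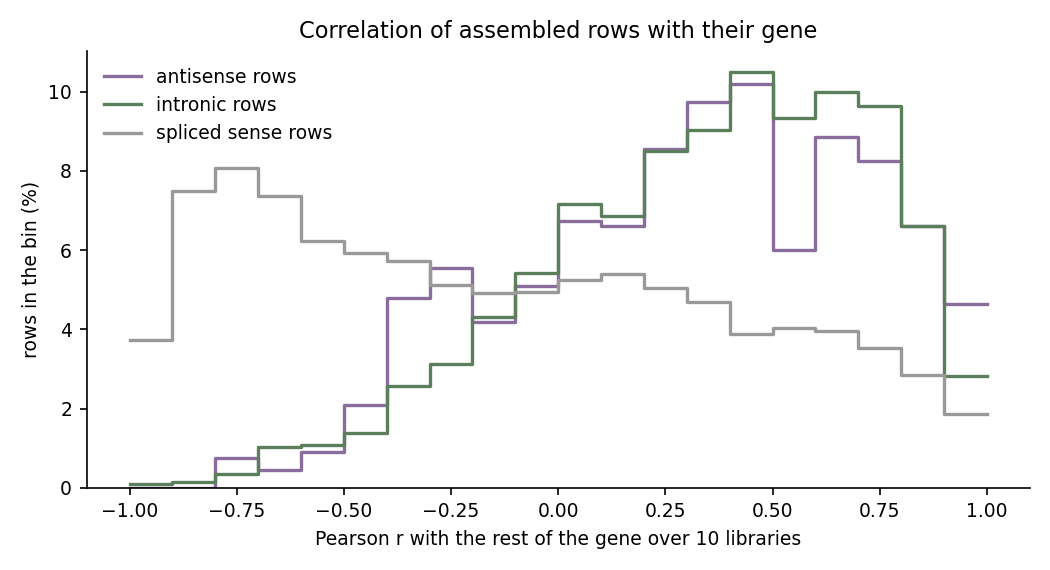
Distribution of Pearson's r between a row and the rest of its gene over 10 libraries, in percent of the rows of a class, for antisense rows (667), rows inside introns (1951) and spliced sense rows (8920). The antisense and intronic lines lie mostly to the right of 0, with medians of 0.35 and 0.39, and the sense line has its median at -0.19.

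By position, the test called 18 of 72 pairs over the host's 3′ end (25%), 46 of 471 inside the host (9.77%), 5 of 81 over its 5′ end (6.17%) and 0 of 39 that spanned it. The median r was 0.49, 0.35, 0.33 and 0.14 in that order. No test of these differences was made. Of the 72 pairs over the 3′ end, 14 overlapped the host by at most 100 bases, a limit set after the values were seen, and 8 of these 14 were among the 18 called. By host level the median r stayed between 0.30 and 0.40, from hosts of 1 to 10 FPKM up to those of 1000 FPKM or more. The median r was 0.08 for the 51 pairs of names on several chromosomes, and none of these was called.

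The closest pair was Hba-a2, an adult haemoglobin alpha chain. Its row MSTRG.3269.3 stood at 30.9, 12.9, 7.50, 32.1 and 20.6 FPKM in SG and at 12.6, 15.7, 46.4, 57.6 and 33.4 FPKM in SHAM. The host stood at 389, 194, 110.1, 394 and 357 FPKM in SG and at 199, 214, 606, 978 and 602 FPKM in SHAM. Both were lowest in SG 3 and highest in SHAM 4, with r = 0.98 and rho = 0.99 (adjusted permutation p of r = 0.00383) and r = 0.95 without SG 3 and SHAM 4. The red blood cell markers in the table summed to 20.6 to 92.3 FPKM in SG and to 44.6 to 220 FPKM in SHAM, and their part in this pair was not tested.

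Opposite Lrp6, a receptor of the Wnt pathway, MSTRG.17392.1 had 2 exons and met the 3′ end of the host by 3 bases, with the rest of its 3285 nt beyond the gene. It stood at 14.9, 14.7, 10.4, 14.7 and 13.3 FPKM in SG and at 16.9, 12.7, 13.0, 8.24 and 10.6 FPKM in SHAM, or 51.7% of the host mean. The correlation was r = 0.97 and rho = 0.95 (adjusted permutation p of r = 0.00383), and r = 0.96 without SG 3 and SHAM 4. Opposite Zbtb20, a zinc finger repressor that acts in liver, MSTRG.5050.1 had 2 exons and 45368 nt. It stood at 1.75 to 4.35 FPKM, with r = 0.97 and rho = 0.94 (adjusted permutation p of r = 0.00554). Opposite Mug2, a protease inhibitor of plasma, MSTRG.17259.1 stood at 0.51 to 3.28 FPKM, with r = 0.97 and rho = 0.90 (adjusted permutation p of r = 0.00667). SHAM 3 was lowest for both strands of Mug2.

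Among the hepatocyte genes, Fdft1, squalene synthase of cholesterol synthesis, had a row of 1 exon and 355 nt that overlapped its 3′ end by 4 bases. MSTRG.8303.1 stood at 13.0, 2.04, 11.1, 2.94 and 2.67 FPKM in SG and at 7.16, 5.88, 6.68, 3.45 and 2.09 FPKM in SHAM, and was high in the libraries where Fdft1 was high (r = 0.92, rho = 0.88, adjusted permutation p of r = 0.0172). With 1 exon it has no splice site that could give its strand. Actb had r = 0.85 and rho = 0.84 (adjusted permutation p of r = 0.0258), and r = 0.63 without SHAM 1 and SHAM 5. AABR07034632 had r = 0.79 and rho = 0.95 (adjusted permutation p of r = 0.0412).

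Several rows named for their level or for a host list were not called. Kng1 had r = 0.51 and rho = 0.47 (adjusted permutation p of r = 0.318). For Fga r was 0.02, with SHAM 3 low on the antisense strand, and rho was 0.43 (adjusted permutation p of r = 0.974). Cyp2c6v1 had r = 0.73 for MSTRG.1470.9 and 0.67 for MSTRG.1473.1 (adjusted permutation p of r = 0.0836 and 0.137), while 2 of the lower rows of that host, MSTRG.1470.75 and MSTRG.1470.18, were called with r = 0.85 and 0.82. Abcc2, the canalicular exporter of conjugates, had r = 0.71 (adjusted permutation p of r = 0.106), Acsl1, which activates fatty acids, 0.61 (0.182 on the same scale) and Hpd, of tyrosine breakdown, 0.36 (0.525). Of the 20 tested pairs of plasma proteins, none was called by r and 1 was lower in SG at an unadjusted p under 0.05 in edgeR, against 1.96% of all isoforms. That row lay opposite Apoe, apolipoprotein E, and stood at 15.4 FPKM in SHAM 5 and at most 0.435 FPKM in every other library.

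**Figure D5:**
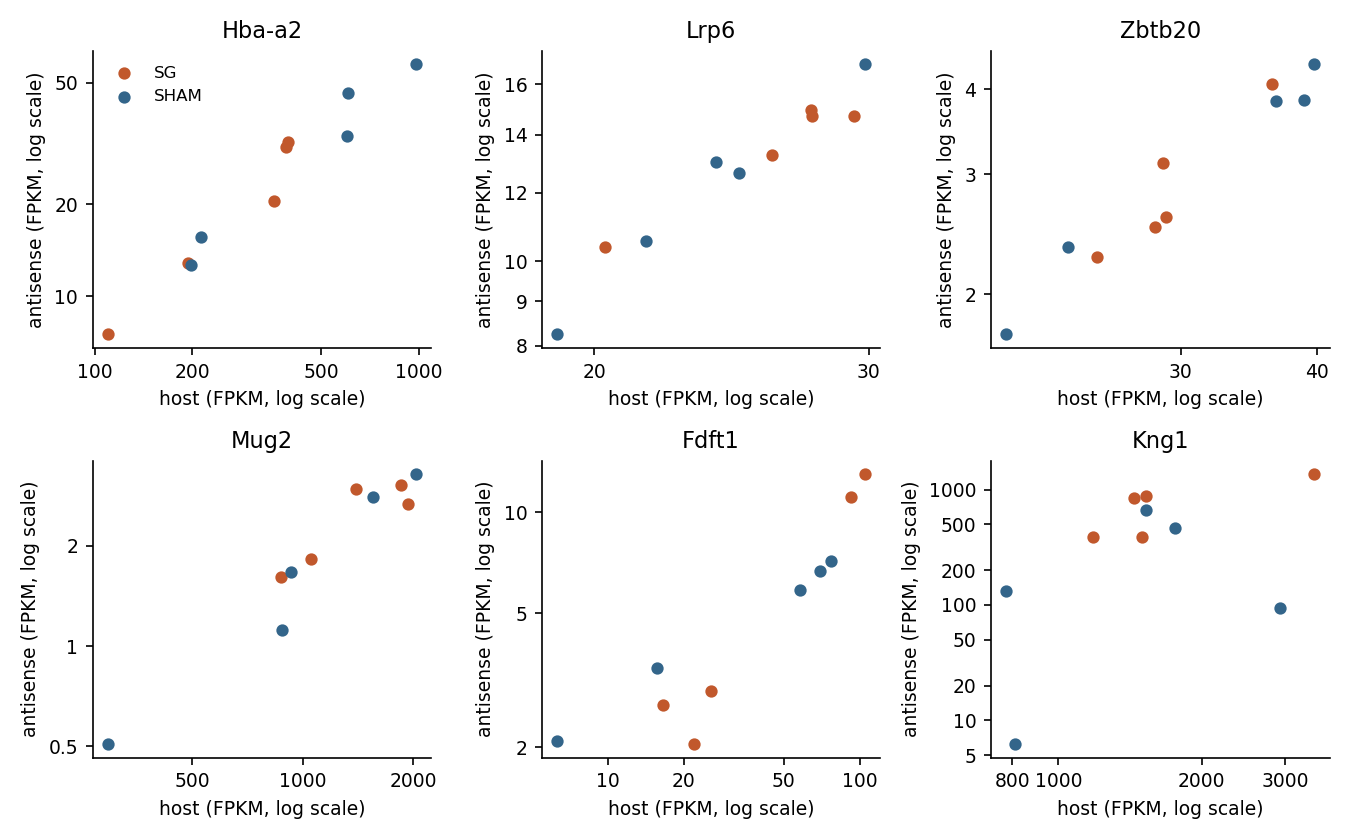
Antisense FPKM against host FPKM in 10 libraries for 6 pairs, both axes on a log scale, with SG and SHAM libraries in colour. Points rise together for Hba-a2, Lrp6, Zbtb20, Mug2 and Fdft1, with r from 0.92 to 0.98, and scatter for Kng1, with r = 0.51.

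The most negative correlations were those of Rere, RT1-A2, Ddx39b and LOC100910877, a gene described as cytochrome P450 3A1-like, with r from -0.79 to -0.71 and adjusted permutation p of 0.0633, 0.174, 0.0617 and 0.163. Opposite Rere, a nuclear receptor corepressor, MSTRG.19089.1 was at 0 in SHAM 1, at most 0.00327 FPKM in SG 1, SG 2 and SHAM 2, and highest in SHAM 3 and SHAM 4, at 1.51 and 1.72 FPKM. Opposite Ddx39b, a helicase of RNA export, MSTRG.13741.1 was at 1.49 FPKM in SG 4 and at most 0.23 FPKM elsewhere. Opposite RT1-A2, MSTRG.13785.5 stood at 3.22 FPKM in SG 2 and 2.29 FPKM in SG 5, and at most 0.00111 FPKM elsewhere. Its host stood at 0.00974 FPKM in SG 2 and 0.0114 FPKM in SG 5. Without the 2 libraries farthest from the median of the host, r was -0.06 for Rere, -0.15 for LOC100910877, -0.47 for Ddx39b and -0.97 for MSTRG.13785.5 of RT1-A2. The value for RT1-A2 leaves out SG 2 and SHAM 3, so it rests on SG 5. Without SHAM 3, the pairs of Ddx39b and RT1-A2 were called negative, with r of -0.87 and -0.98 (adjusted permutation p of 0.0103 and 0.0458). That of RT1-A2 rests on SG 2 and SG 5. On scaled CPM the pair of Rere was called, with r = -0.74 (adjusted permutation p = 0.0403).

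The pairs with the highest mean log2 ratio of antisense to host were the Mir3591 rows above, MSTRG.13735.52 of AABR07044408 and MSTRG.13785.1 of AABR07044421 on chromosome 20, and MSTRG.18165.2 of LOC259244, described as alpha-2u globulin PGCL3. The row of AABR07044408 averaged 39.0 ± 23.8 FPKM in SG against 36.8 ± 14.1 FPKM in SHAM (SD, n = 5 each) with a host mean of 3.89 FPKM, and SG 5 alone stood low at 0.164 FPKM. The row of AABR07044421 averaged 9.88 ± 7.88 FPKM in SG against 6.97 ± 2.22 FPKM in SHAM (SD, n = 5 each), highest in SG 2 and SG 5, and followed its host with r = 0.96 (adjusted permutation p of r = 0.00718). That host averaged 1.08 FPKM, with 4.59 FPKM in SG 2, 3.95 FPKM in SG 5 and at most 1.06 FPKM elsewhere. Without SG 2 and SG 5 r was 0.87. The host was at 0 in SG 4 and SHAM 3, where the pseudocount sets the ratio. The row lies in the assembled locus of the RT1-A2 rows above, where the split of reads is uncertain. The row of LOC259244 averaged 6.92 ± 3.76 FPKM in SG against 5.62 ± 3.96 FPKM in SHAM (SD, n = 5 each), and its host was at 1486 FPKM in SG 4, at 3.02 FPKM in SG 2, at 25.2 FPKM in SHAM 2 and at 0 in the other libraries. There the pseudocount sets the ratio, and the antisense mean of that row was 4.14% of the host mean.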

How the data were processed

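Total RNA of rat liver was depleted of ribosomal RNA and sequenced as paired ends in 10 libraries, per the labels' protocols. HISAT2 2.0.4 and StringTie 1.3.4 on the build Rnor_6.0, with cutadapt 1.9 and FastQC 0.10.1, stand in the submitters' processing notes. Strandedness is not given in any source used here. What the authors deposited is a table of isoforms that gives each library's FPKM (fragments per kilobase, scaled to depth, per the file headers) and estimated counts. Because the estimated counts deposited by the authors share reads between overlapping isoforms, p-values of count models rest on estimates.

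The antisense rows, their hosts, the gene lists and the tests were chosen with earlier results of these data known. Groups were taken from the labels. Rows were tested from a mean of 0.1 FPKM with values above 0 in 5 or more libraries, and genes from a mean of 1 FPKM. EdgeR 4.0.16 (R 4.3.3; quasi-likelihood, trimmed mean of M values, rounded counts) was fitted on all isoforms and on all genes, with limma 3.58.1 on log2(FPKM + 0.1), or + 0.5 for genes, and DESeq2 1.42.0 beside it. SE values were derived from the F statistic. Ratios were fitted by limma on log2((row + 0.1)/(rest of the gene + 0.1)) for all rows whose gene had at least 1 FPKM elsewhere, and Pearson's r used the same rows with 100000 permutations. Tests were two-sided, with Benjamini-Hochberg adjustment over the whole table and a threshold of 0.05. The scripts were tested on simulated data. Rows named in the text were the 8 highest by mean, the 5 highest by ratio, the 4 smallest p-values in each direction of the transcript and of the ratio test, the 4 most positive and 4 most negative r, and up to 2 of the highest for each host list. Other rows are named as picked after their values were seen. One row without overlap between the groups is not reported here. Fold changes on the log2(FPKM + pseudocount) scale understate changes of low rows. Sequences are from RefSeq (GRCr8), and coordinates of rows are those of the table (Rnor_6.0). Names from GRCr8 served for biotypes only.

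Alternatives were DESeq2 size factors, no filter, other pseudocounts and filters, Spearman's rho, subtracted group means, scaled CPM, a replicate block and leaving out each library. Totals of 65824088 to 92110190 estimated counts per library set the precision, and the floor of 3 counts covers counting error only.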

Additional observations from a re-analysis of the deposited data

Results flagged for a closer look

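Rows whose highest or lowest library stood far from the others of its group on the log2(FPKM + 0.1) scale were looked for among the rows named in the text, where chance alone flags about 1 in 20 groups of 5. Opposite Akr1c19 (MSTRG.10018.2), SHAM 4 stood at 1.31 FPKM with the next at 0.0129 FPKM, and SG 5 at 0.00453 FPKM with the next at 0.000678 FPKM, a gap between values near 0. Opposite Nedd4l, SHAM 5 stood at 1.61 FPKM with 0 in the other SHAM libraries. Opposite Fga, SHAM 3 stood at 1.81 FPKM with the next lowest at 87.9 FPKM. Opposite AABR07000398 (MSTRG.136.42), SHAM 5 stood at 262 FPKM with the next at 0.00165 FPKM. Opposite AABR07044408 (MSTRG.13735.52), SG 5 stood at 0.164 FPKM with the next lowest at 36.7 FPKM. Opposite Ddx39b, SG 4 stood at 1.49 FPKM with the next at 0.0447 FPKM.

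In the histocompatibility genes, SG 4 stood at 0 FPKM opposite RT1-A1 (MSTRG.13781.2) with the next lowest at 1.66 FPKM, and SHAM 5 stood at 4.77 FPKM opposite RT1-A2 (MSTRG.13785.4) with the next at 0.488 FPKM. Opposite RF00002, MSTRG.138.42 stood at 281 FPKM in SG 3 and at 2932 FPKM in SHAM 4 with 0 in the others of each group, and MSTRG.19477.2 stood at 49.97 FPKM in SHAM 5 with the next lowest at 402 FPKM. Opposite Ctdsp1, SHAM 3 stood at 0.334 FPKM with 0 in the other SHAM libraries. Other isoforms at these loci share reads with the rows by estimate, and the part of that in these values was not tested.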

How the results depend on the processing

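Of the antisense calls, edgeR's 0 of 735 became 1 in DESeq2, in limma on log2 FPKM, in edgeR over antisense rows summed per host (added after seeing the data), and 0 to 1 with a library left out. That row was Cpn2 each time, with edgeR adjusted p-values of 0.0377 to 1.0 over the alternatives within edgeR on single rows. The count at an unadjusted p under 0.05, 31, was 78 with no filter, where more rows were tested. For hosts, 0 calls became 1 in DESeq2, and the 11 at an unadjusted p under 0.05 became 20 in DESeq2, 19 in limma, 18 without both SG 2 and SHAM 5, and 7 to 18 with a library left out. For ratios, 1 call became 2 without both SG 2 and SHAM 5 and 1 to 2 with a library left out. The second was Nedd4l without SHAM 5, where its row was above 0 in SG libraries alone, so that call is a description. The count of ratios at an unadjusted p under 0.05, 31, ranged from 20 to 36 with a library left out and was 38 at a pseudocount of 0.5. For correlations, the 69 calls became 38 by Spearman's rho (36 of them among the 69), 33 with group means subtracted, 23 without both SG 2 and SHAM 5 and 43 to 54 with a library left out, where fewer libraries enter. The summed antisense difference of -1150 FPKM became 607 FPKM over hosts on 1 chromosome (names on several chromosomes held most of SHAM 4's excess), and ranged from -1664 to -246 FPKM with a library left out. A large part of the 607 FPKM stood in the Kng1 row, at means of 771 FPKM in SG and 272 FPKM in SHAM. The median log2 ratio difference of 0.000277 became -0.0209 with a filter of 0.5 FPKM and ranged from -0.0463 to 0.0472 with a library left out. It is near 0 under each of these, and the cause of its sign was not tested.

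Replicate numbers are shared by the groups but same-numbered libraries did not deviate together (correlations of -0.03 to 0.04), so the block is only a check. With the replicate block edgeR called 0 antisense rows, 20 were at an unadjusted p under 0.05, and limma called 0 ratios, with Cpn2 at an adjusted p of 0.0573. Of the remaining alternatives, correlation calls were 76 at a pseudocount of 0.5, 79 on scaled CPM and 55 of 574 pairs with hosts of at least 5 FPKM. Low levels limit precision: the median SE of an antisense row was 0.60 on the log2 scale.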
